A study of Drosophila melanogaster with 18 samples.

Results

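Each of 749 barcoded reporter genes, integrated at different sites in the genome of Drosophila Kc167 cells, was compared between cells that received ACF1 with a GAL4 DNA-binding domain attached (GAL4-ACF1, tethered) and cells that received ACF1 without that domain (ACF1, untethered). The comparison used 8 of the 18 samples of the series, chosen by their labels: 2 cDNA and 2 gDNA libraries of each group, over all 749 reporters of the deposited table. For fold-changes, 642 reporters with a mean expression above 0 in each of the 4 transfected conditions were kept. The other conditions, GAL4 alone and GAL4 fused to the heterochromatin protein HP1a, set this filter and share in the estimate of the spread, and values of the GAL4 condition rank the reporters and stand beside those of the 2 groups.

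Kc167 is an embryonic Drosophila cell line. A pool of these cells carried, by transposition, a GFP gene under a copper-inducible metallothionein promoter with 5 GAL4 sites upstream, marked at each integration by a barcode of 21 nt. The same pool was used for both groups, with 0.5 mM copper sulfate to induce the reporters, a transient transfection, and sorting of mCherry-positive cells at day 2 after transfection. The 2 plasmids shared an actin promoter, a V5 tag, ACF1 and mCherry, made from the same transcript,, and differed by the GAL4 DNA-binding domain. The groups therefore differ in whether the introduced ACF1 could bind the reporter, and in the presence of the GAL4 domain itself. The amounts of the 2 proteins were not analysed here, and the table holds reporter barcodes only, so the group labels could not be checked against ACF1 itself. Cells of an independent reporter pool, at 2.5% of the cell count, had been added to each sample before RNA extraction so that total reporter expression could be scaled between samples.

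ACF1 is the large subunit that, together with the ATPase ISWI, forms the chromatin remodelers ACF and CHRAC. These complexes slide nucleosomes along DNA and space them evenly, and evenly spaced arrays are a feature of inactive chromatin. A fusion to the GAL4 domain brings a protein to a chosen promoter through its binding sites, while the same protein without the domain is a control for its overexpression.

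A barcode is the only sequence that tells 1 reporter from another, since promoter, GAL4 sites and GFP were shared. It was read in the transcript (cDNA) and in the integrated copy (gDNA). The barcodes of 8 reporters on which the description turns are shown 5′ to 3′ in lower case, with no letters in capitals because no part of a barcode has a role of its own. They belong to the only reporter that passed the test for a single reporter, the reporters with the most negative and the most positive fitted change among those with enough counts, the 3 highest reporters of the GAL4 condition, and 1 reporter without counts in either library of each group.
3R 13718423: agtactggatgtggggggttc
3R 2137932: actgttttgctgtgtttcctt
X 7017165: cggcacgatctgcttagctac
3L 3430681: gatacttagtagcttagcgcc
3R 4644683: tgggtaagggcaactgaactt
X 3325631: gggggggcacgtcaggaagtg
2L 4361232, at 0 in both GAL4-ACF1 libraries: gttagtctgacatccggcttg
2L 19623120, at 0 in both ACF1 libraries: gaggattgcgggatatgtgga
Reporters are called by chromosome arm and position, in the dm3 build given in the submitters' processing notes. The genes around these sites were not annotated, because only a reference of a newer build was given.

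The cDNA libraries held 2616438 and 3715878 barcode counts in GAL4-ACF1 (replicates 1 and 2) and 3832782 and 4049776 in ACF1. The gDNA libraries held 2845445 and 2085812 in GAL4-ACF1, and 2416656 and 1535023 in ACF1. The median reporter had 152 and 219 cDNA counts with the tethered protein and 396 and 364 with the untethered one, against gDNA medians from 982 to 1937. The lowest gDNA count of any reporter lay between 83 and 106 in these 4 libraries, so every integration was covered in DNA. The replicates are called technical in the series text and biological in the study's methods, so tests measure only the spread between these samples. Counts are reads without molecular identifiers, and intervals given for them cover counting error only.

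More reporters were without a cDNA count with tethered than with untethered ACF1. In GAL4-ACF1, 179 and 130 of the 749 reporters had no cDNA count, or 23.9% (95% Wilson interval 21.0 to 27.1) and 17.4% (14.8 to 20.2). In ACF1, 72 and 75 had none, or 9.61% (7.70 to 11.9) and 10.0% (8.06 to 12.4). Both tethered libraries lay above both untethered ones. The means were 20.6% ± 4.63 and 9.81% ± 0.283 (SD, n = 2 libraries each). The exact permutation test over the 4 libraries, two-sided, gave p = 0.33, which is the smallest p that 2 libraries against 2 allow. Scaled down to 2616438 counts, the smallest of these cDNA totals, 133.9 reporters would be at 0 in GAL4-ACF1 replicate 2, 82.6 in ACF1 replicate 1 and 78.9 in ACF1 replicate 2.

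Within each replicate, most zeros of GAL4-ACF1 were not zeros of ACF1, whereas most zeros of ACF1 were also zeros of GAL4-ACF1. In replicate 1, 129 reporters were at 0 only with the tethered protein, 22 only with the untethered one and 50 with both. In replicate 2 these numbers were 78, 23 and 52. Over both replicates, 70 reporters were at 0 in both GAL4-ACF1 libraries but not in both ACF1 libraries, 18 the other way round, and 14 in all 4 libraries. The 70 were reporters of low expression in the GAL4 condition, with a median of 4.24 against 38.0 for the 647 reporters that were not at 0 in both libraries of either group. None of the 70 (0) reached 50 counts in both ACF1 libraries. Their gDNA medians were 1072 in GAL4-ACF1 and 907 in ACF1, below the 1891 and 1509 of the 647. The 18 reporters had a GAL4 median of 3.91, close to that of the 70, and 2 of them had at least 50 counts in both GAL4-ACF1 libraries.

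Zeros also occurred in reporters that had counts in the other replicate. Among reporters with 100 to under 500 counts in the other replicate of the same condition, 23 of 173 (13.3%) were at 0 in GAL4-ACF1 replicate 1 and 8 of 179 (4.47%) in replicate 2. In ACF1 these were 5 of 167 (2.99%) and 4 of 174 (2.30%). The tethered replicate 1 had both the lowest cDNA total and the highest share of such zeros. The part of library yield in the number of zeros was not tested. In sorted pools, fewer cells that express a reporter and less mRNA per cell cannot be told apart.

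Where a reporter was at 0 in both libraries of a group, no fold-change can be given, only a bound. The bound sets 3 counts in each empty library and covers counting error only. It does not cover the spread between libraries, where zeros also occurred in reporters with counts in the other replicate. Each value given as "at least", here and below, is such a bound, and the fold-change itself can be smaller. The reporter at 2L 4361232 had 0 and 0 cDNA counts in GAL4-ACF1 and 159 and 32 in ACF1, with 651, 771, 553 and 175 gDNA counts. For counting error alone, its expression was at least 50.7-fold lower with the tethered protein. The bound fell to 22.9-fold without ACF1 replicate 1 and was 78.6-fold without ACF1 replicate 2. The reporter at 2L 2684192 (70 and 42 counts in ACF1) was at least 26.3-fold lower, with at least 16.7-fold without ACF1 replicate 1. The reporter at 3R 21356507 (56 and 45 counts) was at least 7.04-fold lower. These 3 had the highest smaller count in ACF1 among reporters at 0 in both GAL4-ACF1 libraries outside 2R, whose reporters are counted in every summary but not described singly.

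The same pattern existed in the other direction. The reporter at 2L 19623120 had 139 and 53 cDNA counts in GAL4-ACF1 and 0 and 0 in ACF1. For counting error alone, it was at least 42.0-fold higher with the tethered protein. The bound fell to 7.99-fold without GAL4-ACF1 replicate 1 and was 75.9-fold without replicate 2. The reporter at 3R 11291257 (62 and 78 counts) was at least 22.5-fold higher, or at least 14.1-fold without GAL4-ACF1 replicate 1, and that at X 5724222 (69 and 39 counts) at least 8.16-fold higher. Counts of up to 139 in one group and none in the other were thus seen in either direction.

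**Figure D1:**
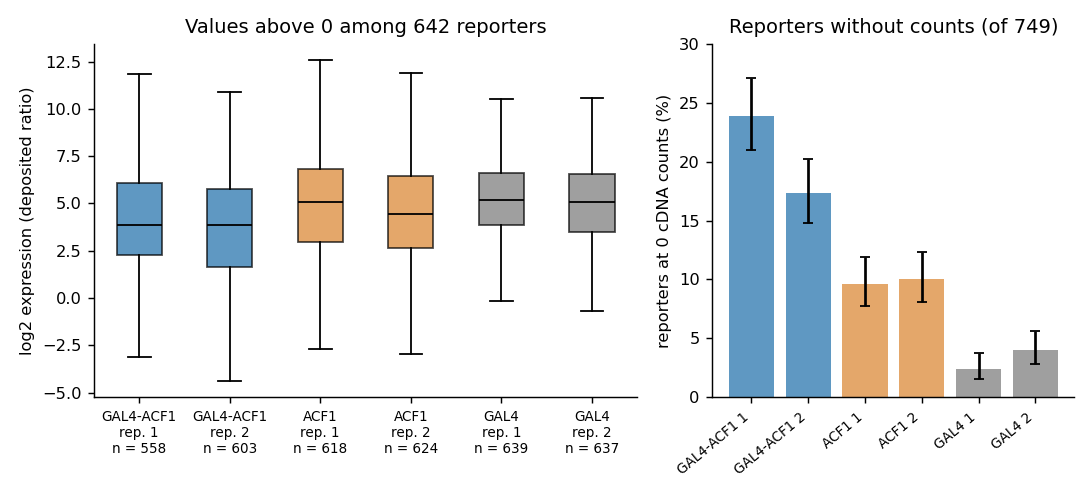
Left, log2 expression (cDNA count over gDNA count, scaled by the authors) of reporters above 0 in each library among the 642 kept, as boxes of the quartiles with the median and whiskers to 1.5 times the box height. Right, percent of all 749 reporters without a cDNA count, with 95% Wilson intervals. Both GAL4-ACF1 libraries have more reporters at 0 (23.9% and 17.4%) than both ACF1 libraries (9.61% and 10.0%).

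Next, the expression of each reporter was compared as the log2 ratio of its mean in GAL4-ACF1 to its mean in ACF1. Expression is the deposited ratio of the cDNA to the gDNA count, scaled by the authors with the added cells. Over all 749 reporters the median expression was 7.53 and 7.74 in the GAL4-ACF1 libraries and 21.3 and 13.6 in the ACF1 libraries, compared with 27.9 and 24.3 in GAL4. Both tethered libraries lay below both untethered ones, and the 2 untethered libraries differed more from each other than the 2 tethered ones.

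Reporters were mostly lower with the tethered protein. The median log2 fold-change over 642 reporters was −0.99, with quartiles of −1.82 and −0.16. It was negative for 508 reporters (79.1%) and positive for 134. In 319 reporters it was below −1 and in 53 above 1, and in 140 below −2 and in 21 above 2. In replicate 1 alone the median was −1.07 (547 reporters), and in replicate 2 it was −0.56 (594 reporters), with a mean of −0.81 ± 0.361 (SD, n = 2). The unmatched pairings gave −0.71 for GAL4-ACF1 replicate 1 over ACF1 replicate 2 and −1.12 for GAL4-ACF1 replicate 2 over ACF1 replicate 1.

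The size of the shift depended on the untethered library used. The 2 medians taken against ACF1 replicate 1 were −1.07 and −1.12, and the 2 against ACF1 replicate 2 were −0.71 and −0.56. Within the untethered group itself, replicate 1 over replicate 2 had a median of 0.42, and within the tethered group −0.080. Without ACF1 replicate 1 the median over all reporters was −0.62. Scaled to library totals in place of the authors' factor, it was −0.53, and 431 reporters (67.1%) were lower. The authors' factor relative to library totals was 94.1 and 95.3 in GAL4-ACF1, and 147 and 112 in ACF1, and a larger factor gives a higher expression for the same counts.

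The shift was seen in the shares of cDNA counts, while the shares of gDNA counts were centred near no difference. Scaling to the library total by itself tends to hold evenly spread gDNA shares there. The total abundance of the integrations was thus not measured. The reporters' shares of the cDNA library had a median log2 ratio of −0.49 between the groups, and their shares of the gDNA library −0.015. The gDNA ratios had an SD of 0.566 over reporters, with 24 reporters below −1 and 34 above 1. The edgeR test of the gDNA counts called 0 of 642 reporters at an adjusted p of 0.05, and 15 had an unadjusted p under 0.05. This fit estimated the spread from cDNA and gDNA libraries together, with a common dispersion of 0.358, against 0.608 for cDNA libraries alone. A spread raised by cDNA can hide differences in gDNA, so equal gDNA is not read from these calls. DESeq2 was not run on the gDNA contrast.

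For 289 of the 642 reporters, or 45.0% of those compared, both GAL4-ACF1 values lay below both ACF1 values. For 24 (3.74%) both lay above, and for the remaining 329 the groups overlapped. With library totals the numbers were 210 (32.7%) lower and 49 (7.63%) higher. In the highest of 4 equal bins of GAL4 expression, 78 of 160 reporters were separated downwards and 12 upwards on the authors' scale. With library totals that became 44 and 26. In the lowest bin 59 of 161 were separated downwards and 3 upwards, and with library totals 46 and 6.

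Whether the shift varied with how active a reporter was could be asked with the GAL4 condition as the measure of activity, since its libraries enter neither side of the ratio. Over 10 equal bins of GAL4 expression, starting with the lowest, the median log2 fold-changes were −1.17, −1.53, −1.05, −1.30, −1.14, −0.92, −1.27, −0.71, −0.76 and −0.51. All 10 were negative, also in each replicate and with library totals, where the highest bin was at −0.072. The lowest value was in the second bin and the 3 values closest to 0 were in the 3 highest bins.

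**Figure D2:**
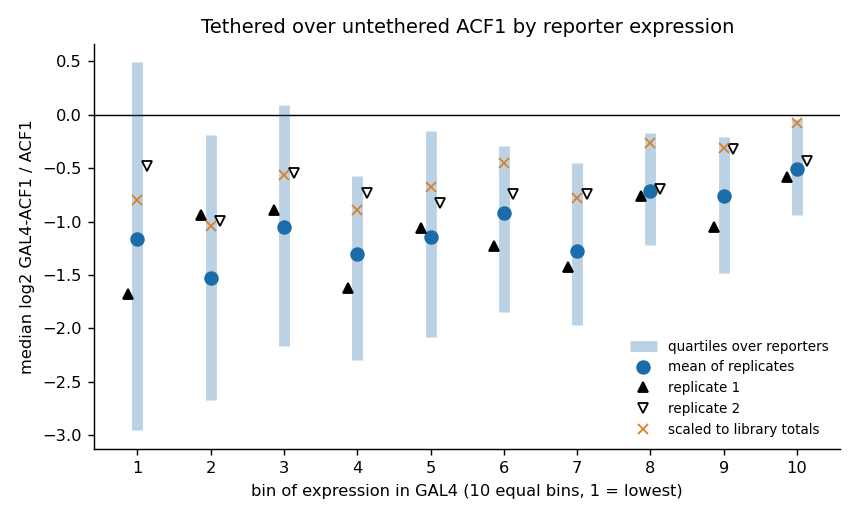
Median log2 ratio of GAL4-ACF1 to ACF1 in 10 equal bins of reporter expression in the GAL4 condition, as circles for the mean of replicates with bars for the quartiles over reporters. Triangles give replicates 1 and 2, and crosses the values scaled to library totals. Every median is below 0, from −1.53 in the second bin to −0.51 in the highest.

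The levels behind these ratios differed widely. In the lowest of 4 bins, the median expression was 1.25 with the tethered and 3.38 with the untethered protein. In the highest it was 153 and 224. The median log2 fold-changes of the 4 bins, in rising order of expression, were −1.20, −1.26, −0.96 and −0.65. The spread between reporters narrowed in the same direction, from an interquartile range of 3.45 in the lowest of 10 bins to 0.904 in the highest.

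The dependence on activity was weak reporter by reporter. Fitted by least squares, the log2 fold-change had a slope of 0.117 per doubling of GAL4 expression, with Pearson's r = 0.157 and Spearman's rho = 0.168 across 642 reporters. Reporters share the libraries and are not independent, so this is a description. The slope was 0.138 in replicate 1 and 0.026 in replicate 2. Without GAL4-ACF1 replicate 1 it was 0.058. It kept its size without the 2 reporters farthest from the median of GAL4 expression (r = 0.155). With library totals the slope was 0.115, but a change of 1 factor per library shifts all ratios nearly alike and can hardly change a slope. On the mean of replicates, other features of the reporter followed the ratio less. With the GC content of the barcode r was 0.022, and with the reporter's share of gDNA it was −0.087 (rho = −0.111). These were not computed by replicate, and for GAL4 expression r was only 0.034 in replicate 2. The gDNA share includes counts that also enter the ratio, so it is not independent of it.

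The same order was seen in the composition of the cDNA libraries, which does not use the authors' scaling. The 64 reporters of the highest of 10 bins in GAL4 made up 75.7% and 75.8% of the cDNA counts in GAL4-ACF1, 69.7% and 73.0% in ACF1, and 63.4% and 66.2% in GAL4. The 322 reporters of the lower 5 bins made up 3.56% and 3.08%, 4.99% and 4.06%, and 7.66% and 6.59%. In each case the tethered libraries did not overlap the untethered ones. In gDNA the highest bin made up 7.56% and 7.93% in GAL4-ACF1 and 8.15% and 8.07% in ACF1, lower in both tethered libraries. The 10 highest reporters of each library took 58.3% and 56.7% of cDNA counts with the tethered protein and 51.0% and 52.8% with the untethered one.

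Single reporters repeated poorly between replicates. For 511 reporters above 0 in the 4 cDNA libraries, the log2 fold-change of replicate 1 and that of replicate 2 correlated with r = 0.099 and rho = 0.084. Both were negative for 301 reporters (58.9%), both positive for 37 (7.24%), and 173 (33.9%) had opposite signs. Both were below −1 for 111 reporters and both above 1 for 10. The SD of the difference between the replicates was 2.29. With at least 100 counts in every cDNA library compared, 361 reporters remained and r was 0.137.

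The agreement was best among active reporters. In the 4 bins of GAL4 expression, from the lowest up, r was 0.098, 0.047, 0.052 and 0.227. The SD of the difference became smaller along these bins, with 3.23, 2.68, 1.93 and 1.60. Even in the highest bin, 51 of 160 reporters (31.9%) had opposite signs in the 2 replicates.

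**Figure D3:**
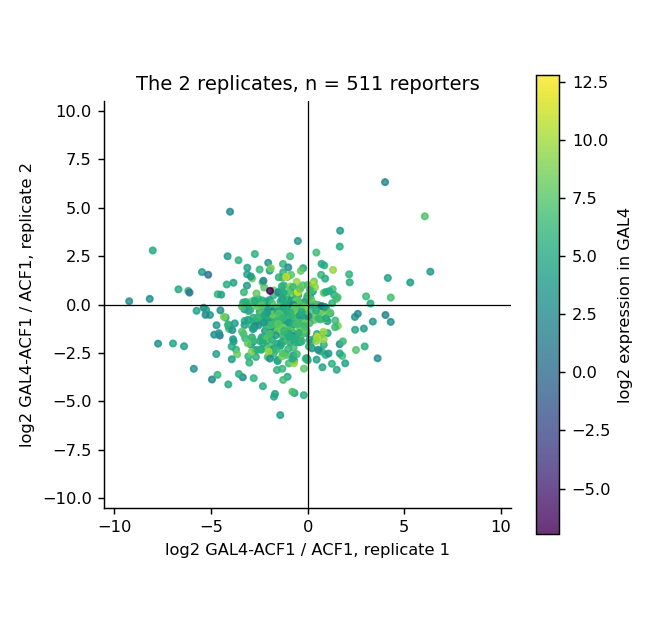
Log2 ratio of GAL4-ACF1 to ACF1 in replicate 1 (x axis) and replicate 2 (y axis) for 511 reporters above 0 in the 4 cDNA libraries, coloured by log2 expression in GAL4. The lower left quadrant holds 301 reporters and the upper right 37, and within the cloud the replicates are nearly unrelated (r = 0.099).

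For each reporter, the counts were then put to the quasi-likelihood test of edgeR, as the change in cDNA relative to the change in gDNA, with library totals as sizes. Of the 642 reporters, 1 passed an adjusted p of 0.05 (0.156%), and it was lower with the tethered protein. At an unadjusted p under 0.05 there were 69 reporters (10.7%), of which 62 were lower and 7 higher. The median fitted log2 change was −0.54.

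The number of calls depended on the tool and on single libraries. DESeq2 with the same library sizes called 25 reporters, 23 lower and 2 higher. With sizes centred on the middle reporter, which moved the median fitted change to −0.016, DESeq2 called 9 lower and 6 higher. With the authors' scaling edgeR called 4, all lower. Without GAL4-ACF1 replicate 2 it called 44, of which 42 were lower, without GAL4-ACF1 replicate 1 it called 3, and without ACF1 replicate 1 none (0, with 47 at an unadjusted p under 0.05).

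The called reporter lay on 3R at 13718423, in plus orientation. It had 17 and 17 cDNA counts in GAL4-ACF1 and 420 and 261 in ACF1, while its gDNA counts were high in all libraries, with 34614 and 22584 in GAL4-ACF1 and 25292 and 18825 in ACF1. Its expression was 0.0503 and 0.0403 with the tethered protein, 1.54 and 0.590 with the untethered one, and 4.16 and 3.84 in GAL4. The groups did not overlap, and the mean was 23.6-fold lower with the tethered protein. The fitted log2 change was −4.00 ± 0.510 (SE) with an adjusted p of 0.00312 by edgeR. This call was also made in the other fits, except with cDNA libraries alone, with the transfection as a block, and without ACF1 replicate 1, where the fitted change was −3.45. Over all these fits its adjusted p by edgeR or DESeq2 ranged from 1.48e-09 to 0.165.

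The reporters with the most negative fitted change among those with at least 50 counts in both ACF1 libraries and in the gDNA had few or no counts with the tethered protein. None of the 4 passed the edgeR test with library totals, whereas all 4 passed by DESeq2 with the same library sizes, with adjusted p from 0.00674 to 0.0343, and the reporter at 3R 2137932 also by edgeR with the authors' scaling (adjusted p = 0.0372). The reporter at 3R 2137932 had 0 and 1 cDNA counts in GAL4-ACF1 and 90 and 102 in ACF1, with 4281, 2916, 4790 and 1202 gDNA counts. From its pooled counts it was 232-fold lower with the tethered protein (exact interval 41.1 to 9199), with an adjusted p of 0.0918 by edgeR. The reporter at 3L 15946542 had 1 and 0 counts against 104 and 52, or 159-fold lower (28.0 to 6301), with an adjusted p of 0.26. In both, the tethered libraries were almost empty. The expression in the ACF1 libraries was 1.75 and 3.61 at 3R 2137932, and 3.02 and 1.34 at 3L 15946542.

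In the remaining pair the untethered libraries differed more. The reporter at X 15111943 had 0 and 14 counts in GAL4-ACF1 and 672 and 89 in ACF1, and expression of 12.7 and 1.59 in the ACF1 libraries. The reporter at 3R 2021404 had 0 and 22 counts against 617 and 108, and expression of 41.6 and 3.03 in ACF1 but 4.44 and 1.49 in GAL4. Their adjusted p were 0.236 and 0.298 by edgeR. Without ACF1 replicate 1 their fitted log2 changes went from −5.46 to −3.50 and from −5.16 to −3.00. Of 518 reporters with enough counts in ACF1, 329 were lower in both replicates, where a library at 0 does not count against the sign. The 4 reporters are the extreme of these outside 2R. The filter asks for cDNA counts in ACF1 but not in GAL4-ACF1, which favours lower reporters. No direction is therefore read from this share.

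Of 421 reporters with enough counts in GAL4-ACF1, 34 were higher with the tethered protein in both replicates. This filter asks for counts in the other group, so the share is not compared with the one above. Among the 511 reporters above 0 in the 4 cDNA libraries, 37 were higher in both replicates and 301 lower. The reporter at X 7017165 had 1031 and 288 cDNA counts in GAL4-ACF1 and 123 and 51 in ACF1. Its gDNA counts differed as well, with 215 and 154 against 1551 and 511. Its expression was 491 and 100.1 with the tethered protein, 7.37 and 4.25 with the untethered one, and 88.0 and 206 in GAL4. The fitted log2 change was 6.10 ± 1.87 (SE), with an adjusted p of 0.236 by edgeR and 0.0205 by DESeq2 with the same library sizes. The GAL4 values of this reporter lay near those of the tethered group, and it was the untethered group that stood apart.

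The other 3 reporters of this kind had their higher tethered value in replicate 1. At 3L 17161692 the expression was 36.8 and 1.36 in GAL4-ACF1 and 2.30 and 0.0169 in ACF1, at 3L 3343558 it was 49.7 and 3.98 against 11.0 and 1.80, and at 3L 21644076 it was 173 and 10.7 against 18.2 and 10.3. In each of the 3 the lower tethered value lay below the higher untethered one, so the groups overlapped. Their adjusted p lay between 0.363 and 0.446 by edgeR.

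The 3 reporters with the highest expression in GAL4 did not move together. The reporter at 3L 3430681 had an expression of 7300 and 7118 in GAL4, 4374 and 7055 in ACF1, and 2670 and 912 in GAL4-ACF1, so that the tethered values lay below the untethered ones. The reporter at 3R 4644683, which alone took 17.9% and 17.5% of the cDNA counts in GAL4-ACF1 and 15.7% and 13.5% in ACF1, had 3225 and 4207 in GAL4-ACF1 and 4570 and 2705 in ACF1, with overlapping groups. The reporter at X 3325631 had 7150 and 9516 in GAL4-ACF1 against 6116 and 4690 in ACF1, and was higher with the tethered protein. None of the 3 passed the edgeR test, with adjusted p from 0.288 to 0.363. By DESeq2 with sizes centred on the middle reporter, those at 3R 4644683 and X 3325631 passed as higher (adjusted p = 0.00607 for each). Relative to edgeR with library totals, their fitted changes rose from 0.49 to 1.02 and from 1.03 to 1.56, while the median fitted change rose from −0.54 to −0.016.

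In 2 of these 3 the gDNA counts also differed between the groups. At 3L 3430681 gDNA counts were 1777 and 2208 in GAL4-ACF1 and 1344 and 430 in ACF1. At X 3325631 they were 1301 and 574 against 2126 and 1191. With cDNA libraries alone the fitted change of the reporter at X 3325631 was −0.15, whereas relative to gDNA it was 1.03. Its direction thus depended on the division by gDNA. For the reporter at 3L 3430681 the fitted change was −0.29 with cDNA libraries alone and −1.30 relative to gDNA, and its cDNA shares overlapped, with 1.77% and 1.01% in GAL4-ACF1 and 1.65% and 1.76% in ACF1.

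**Figure D4:**
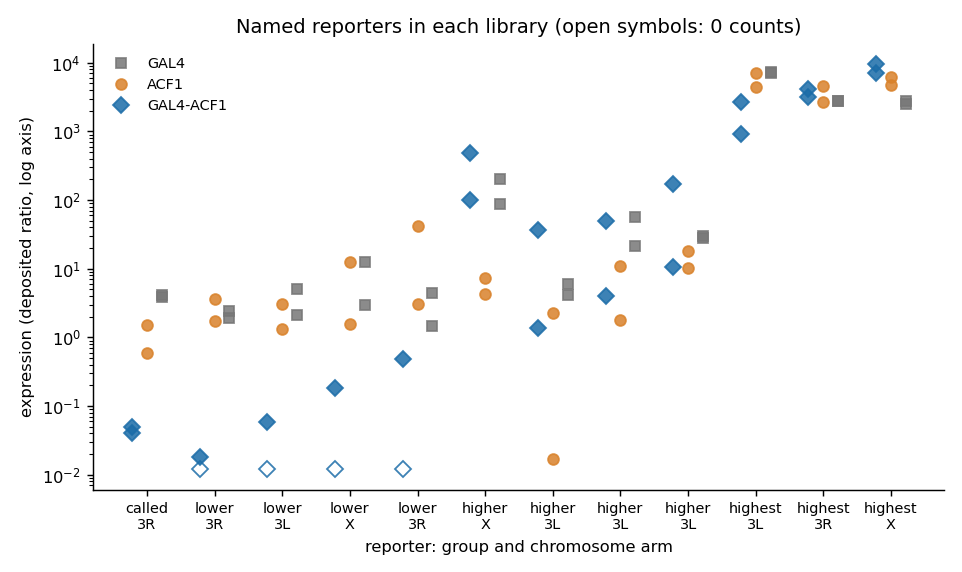
Expression (deposited cDNA over gDNA ratio, log axis) of 12 named reporters in each library of GAL4-ACF1 (diamonds), ACF1 (circles) and GAL4 (squares), labelled by chromosome arm. They are the called reporter, the 4 lower, the 4 higher and the 3 highest in GAL4 outside 2R, in the order of the text. Open symbols at the bottom of the axis stand for 0 cDNA counts, and the called reporter has both tethered values (0.0503 and 0.0403) below both untethered ones (1.54 and 0.590).

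The shift was present on each large chromosome arm. The median log2 fold-change was −1.12 on X (131 reporters), −1.12 on 2L (108), −0.79 on 2R (101), −0.97 on 3L (129) and −0.89 on 3R (155), and between 77.2% and 81.4% of the reporters of an arm were lower with the tethered protein. In replicate 1 the arms ranged from −1.24 (X) to −0.97 (3R), and in replicate 2 from −0.82 (X) to −0.42 (2R). X was the lowest arm in both replicates, while the medians of the arms lay within the quartiles of each other. With library totals the arms ranged from −0.61 to −0.38.

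Along the arms the median was negative in all 20 windows of 5 Mb with at least 20 reporters, from −1.31 to −0.53, both on 2R. In the window at −0.53 it was −1.22 in replicate 1 but 0.33 in replicate 2, and −0.027 with library totals. The orientation of the reporter made little difference, with −1.01 for 296 reporters in plus and −0.97 for 346 in minus orientation. Of 28 reporters on heterochromatic or unplaced scaffolds, only 14 passed the filter, and these had a median of −1.08. In this group 14 and 17 of the 28 were at 0 in the GAL4-ACF1 libraries, and 8 and 11 in the ACF1 libraries.

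**Figure D5:**
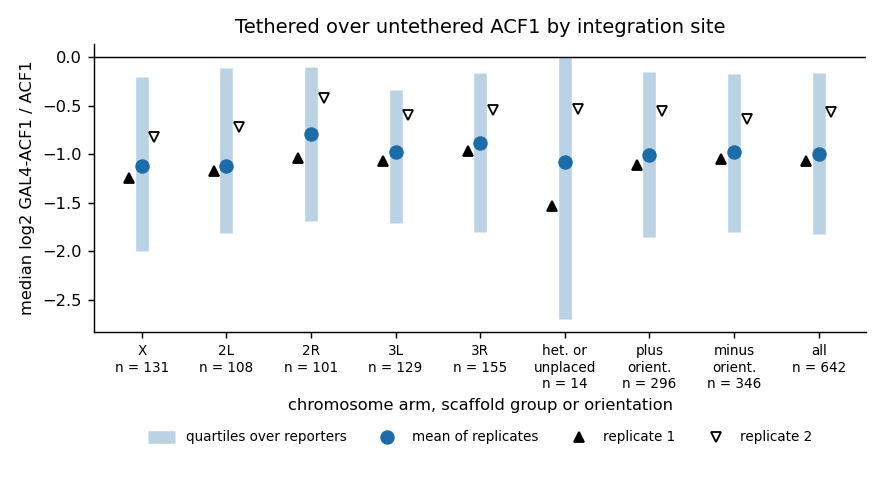
Median log2 ratio of GAL4-ACF1 to ACF1 by chromosome arm, for heterochromatic or unplaced scaffolds, by orientation and for all 642 reporters, as circles with bars for the quartiles over reporters and triangles for replicates 1 and 2. All medians are below 0, and every replicate 1 value is below that of replicate 2.

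Chromosome 4, which is small and rich in heterochromatin, carried 5 reporters. At 4 547814 the expression was 326 and 356 with the tethered and 582 and 479 with the untethered protein, and at 4 1252113 it was 10.6 and 8.01 against 39.0 and 15.1. In both the tethered values lay below the untethered ones. At 4 966930 it was 307 and 161 against 282 and 96.5, with overlapping groups. At 4 1200624 there were 19 and 0 cDNA counts in GAL4-ACF1 and 215 and 36 in ACF1. At 4 407950 there were 0 and 0 counts against 0 and 14, so that reporter was not kept. None of the 4 that were tested passed, with adjusted p from 0.486 to 0.803 by edgeR. With sizes centred on the middle reporter, the fitted change of the reporter at 4 547814 turned from −0.19 to 0.31.

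Reporters that lay close together differed about as much in their ratios as distant ones. For 30 pairs of neighbouring reporters under 10 kb apart, the median absolute difference of the log2 fold-change was 1.13, and r was −0.17. For 132 pairs at 10 to 50 kb it was 1.38 with r = 0.17, for 268 pairs at 50 to 200 kb 1.37, and for 201 pairs farther apart 1.30. A difference of this size lay within the spread between the replicates.

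In 2 of the 3 closest pairs outside 2R the groups overlapped. On 3L, 171 bases apart, the reporter at 3951388 had an expression of 50.7 and 18.4 in GAL4-ACF1 and 106.5 and 31.0 in ACF1, and that at 3951559 had 3.01 and 14.5 against 16.2 and 14.1. On 3L, 357 bases apart, the reporter at 2089820 had 38.3 and 18.3 against 137 and 25.5, and that at 2090177 had 55.6 and 10.9 against 39.8 and 31.2. In each of these 4 reporters the higher tethered value lay above the lower untethered one.

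The third pair lay on X, 411 bases apart, and was low with the tethered protein at both sites. The reporter at 19318769 had 0 and 0 cDNA counts in GAL4-ACF1 and 20 and 23 in ACF1. For counting error alone, it was at least 7.19-fold lower (at least 4.58-fold without ACF1 replicate 1). The reporter at 19319180 had 0 and 1 against 2 and 41, or 59.0-fold lower from pooled counts (exact interval 10.0 to 2384). This rested on ACF1 replicate 2, without which its fitted log2 change went from −5.29 to −3.25. In GAL4 these 2 reporters differed, with an expression of 4.03 and 2.84 at the first and 39.8 and 19.0 at the second. In ACF1 it was 1.52 and 0.708 at the first and 0.485 and 1.96 at the second. Both were thus also lower with the untethered protein than in GAL4.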

How the data were processed

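The authors deposited 1 table with barcode counts per cDNA and gDNA library and an expression ratio per library, the cDNA count over the gDNA count of the same replicate times 1 factor per library, which holds their scaling to added cells of a second pool. The counting software is not given in the sources used here, and dm3 comes from the submitters' processing notes. A second file lists barcodes of the added cells without counts and was not used. Groups came from sample labels. Reporters with a mean ratio of 0 in any of 4 conditions were left out of fold-changes (107 of 749), and no pseudocount was added. The filter is a wider reading of a step in the study's methods that removes reporters with a value of 0 in a condition. Read as a 0 in any cDNA library, that step keeps 497 reporters, with a median log2 ratio of −0.89 in place of −0.99. The number of reporters in the study's figures is close to these 497. The 642 reporters kept here include some that were at 0 in single libraries. Of the 107, 84 were at 0 in GAL4-ACF1 (58 in no other condition) and 32 in ACF1 (15 in no other), so the filter removes more reporters that are low with the tethered protein.

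Single reporters were tested with edgeR 4.0.16 in R 4.3.3 on the deposited counts (glmQLFTest, two-sided, 16 libraries in 8 groups, column totals as library sizes, Benjamini-Hochberg over 642 reporters). DESeq2 1.42.0, other scalings, filters, blocks and the leaving out of libraries were alternatives. The fit was also run on simulated counts that gave cDNA and gDNA libraries the same spread. That run therefore does not show the error rate of the test in these data. Medians over reporters carry no test, because 2 libraries against 2 cannot give an exact p under 0.05. Other values were computed in Python 3.11.15 with numpy 2.4.6, pandas 2.3.3 and scipy 1.17.1.

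Reporters were named outside 2R by a rule: every reporter past the threshold, the 4 most negative and 4 most positive fitted changes with the same sign in both replicates and at least 50 counts in the cDNA libraries of the higher group and in each gDNA library, the 3 highest in GAL4, 3 at 0 in both libraries of each group, those of chromosome 4, and the 3 closest pairs. A library at 0 does not count against the same sign. Members and lists were chosen with earlier results of these data known.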

Additional observations from a re-analysis of the deposited data

How the results depend on the processing

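The median log2 ratio was negative under all 15 alternatives, from −1.07 to −0.53, which all used the authors' factor or library totals. The lowest and highest values when libraries were left out were −1.07 and −0.56, with −0.62 without ACF1 replicate 1, and with library totals the median was −0.53. Scalings that centre on most reporters move the median fitted change towards 0 by their construction, so they do not test the shift. The median fitted change was −0.54 by edgeR with library totals, −0.13 by edgeR with TMM, and −0.016 by DESeq2 with median-of-ratios sizes. At an unadjusted p under 0.05, 33 reporters were lower and 21 higher by edgeR with TMM. By DESeq2 with median-of-ratios sizes, 42 were lower and 43 higher. The slope on GAL4 expression ranged from 0.026 to 0.138 over left-out libraries. The number of reporters past the threshold by edgeR, 1, became 4 with the authors' scaling, 5 without a filter and 0 with the transfection as a block (49 at an unadjusted p under 0.05). It became 25 and 15 by DESeq2 with the same library sizes and with median-of-ratios sizes, where 592 reporters had an adjusted p, and ranged from 0 to 44 over left-out libraries. The fits without a library leave 1 sample in its group, which is assumed to vary like the other groups. The gDNA test called 0 under its 7 alternatives, which also took the spread from cDNA and gDNA libraries together. With 3 counts or fewer in place of 0, 213 and 144 reporters were silent in the GAL4-ACF1 libraries, and 115 and 88 in the ACF1 libraries. In both libraries of a group, 109 were silent in GAL4-ACF1 and 55 in ACF1.

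With library totals the arm medians were −0.61 on X, −0.61 on 2L, −0.50 on 3L and −0.49 on 3R, and −0.55 and −0.52 for plus and minus orientation. Without replicate 2 and without replicate 1 they were −1.24 and −0.82 on X, −1.17 and −0.72 on 2L, −1.07 and −0.59 on 3L, −0.97 and −0.55 on 3R, −1.36 and −0.43 on chromosome 4, −1.11 and −0.55 for plus and −1.05 and −0.64 for minus orientation. Replicate agreement with the numbers crossed, an alternative chosen after seeing the data, was −0.010.

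Replicate numbers are shared by the groups, but deviations of same-numbered libraries correlated at only 0.060 in cDNA and 0.059 in gDNA, over 642 reporters, so the numbers were not taken to pair samples. With the replicate block the median was −0.88, the slope 0.072 and the number called 1, and no other call was changed by it.

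Of the fits of named reporters under alternatives, 254 kept direction and side of the threshold, 13 passed it only under the alternative, 3 no longer passed and 17 reversed. The reversals were in 7 reporters that did not pass by edgeR with library totals, among them X 3325631 (1.03) and 4 966930 (0.98). With cDNA alone, X 3325631 was at −0.15, 4 966930 at −0.62 and 3L 2090177 at 0.077. With TMM, 4 547814 was at 0.20 and 3L 2090177 at 0.35, and with median-of-ratios sizes 4 547814 was at 0.31, 3L 3951388 at 0.055 and 3L 2090177 at 0.49. The reporter 3L 3951559 was at −0.39 with the authors' scaling, −0.059 with the replicate block and −0.74 with the transfection block. Over left-out libraries the values ranged from −1.38 to 0.33 for 3L 3951388, from −1.87 to 0.37 for 3L 3951559, from −1.59 to 0.45 for 3L 2089820 and from −1.26 to 1.11 for 3L 2090177. The cause of these changes was not tested. The depth limits reporters with few counts, and 2 libraries a group limit every comparison.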
